A study of Homo sapiens with 28 samples.

Results

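The genes of serine synthesis, the serine to glycine step, the glycine cleavage system and the mitochondrial folate enzyme MTHFD2 were followed in xenograft tumours that had become resistant to an inhibitor of the VEGF receptor pathway. The 9 genes were PHGDH, PSAT1, PSPH, SHMT1, SHMT2, GLDC, AMT, GCSH and MTHFD2, taken as pathway members by name from 19775 genes on the array. The set was chosen by its pathway together with the measured GLDC signals of resistant and untreated A498 tumours, where GLDC was lower in the resistant ones, so that comparison is given as a description with no test. All 9 genes were among the 13808 genes that passed a filter on low values, which asked for a signal above the median of all values (89.4, or 6.72 on the log2 scale) on at least 4 arrays.

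The tumours were subcutaneous flank xenografts of A498 and 786-O, which are established lines of human renal cell carcinoma, grown in female athymic nude/beige mice that were 6 to 8 weeks old when injected. Both drugs block VEGF receptors, and sorafenib (80 mg/kg) also RAF kinases and sunitinib (53.6 mg/kg) also KIT; each was given by gavage on 6 of 7 days a week once a tumour measured 12 mm. Tissue was taken either at that pretreatment diameter or at the maximum of 20 mm, and sizes of single tumours are not labelled. There were 5 sorafenib-resistant and 4 untreated A498 tumours, and in 786-O 5 sorafenib-resistant tumours with 5 untreated ones of that arm and 4 sunitinib-resistant tumours with 5 untreated ones of that arm. Whether each tumour came from its own mouse is not stated, and the spread behind each p-value is that between these samples, which may be technical in part. The host keeps mouse stroma, whose RNA can bind the human probes.

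Serine is made from the glycolytic intermediate 3-phosphoglycerate by PHGDH, PSAT1 and PSPH in turn. The serine hydroxymethyltransferases SHMT1 in the cytosol and SHMT2 in mitochondria split serine into glycine and a carbon unit carried by folate, and MTHFD2 oxidises that unit in mitochondria. The glycine cleavage system breaks glycine down in mitochondria: GLDC removes its carbon dioxide, GCSH carries the remainder on a lipoyl arm, AMT passes the carbon to folate, and DLD reoxidises the arm. In the adult body glycine cleavage is best known from liver and kidney, and loss of GLDC or AMT causes nonketotic hyperglycinaemia. PHGDH, PSAT1, PSPH, SHMT2 and MTHFD2 are known targets of ATF4, the transcription factor of the amino acid response.

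Promoters are shown for 4 genes, because GLDC and PHGDH differed most between the lines and PSAT1 and MTHFD2 moved in opposite directions in sunitinib-resistant 786-O tumours. RefSeq sequence of the GRCh38.p14 build, 250 bases before to 50 bases after the gene start, was matched for 7 of the 9 genes, and PSPH and SHMT2 were not matched. The windows lie at chr1:119711684-119711983 on the plus strand for PHGDH, chr9:78296875-78297174 on the plus strand for PSAT1, chr2:74198365-74198664 on the plus strand for MTHFD2 and chr9:6645680-6645979 on the minus strand for GLDC. Each is written 5′ to 3′ along the gene, with capitals marking the letters CCAAT or their reverse complement ATTGG.
PHGDH: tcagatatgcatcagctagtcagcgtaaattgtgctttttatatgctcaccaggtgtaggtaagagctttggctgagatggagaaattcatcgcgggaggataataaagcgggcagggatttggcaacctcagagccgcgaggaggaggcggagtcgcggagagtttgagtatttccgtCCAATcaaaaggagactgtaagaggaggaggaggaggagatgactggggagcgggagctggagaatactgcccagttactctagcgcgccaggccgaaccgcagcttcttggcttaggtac
PSAT1: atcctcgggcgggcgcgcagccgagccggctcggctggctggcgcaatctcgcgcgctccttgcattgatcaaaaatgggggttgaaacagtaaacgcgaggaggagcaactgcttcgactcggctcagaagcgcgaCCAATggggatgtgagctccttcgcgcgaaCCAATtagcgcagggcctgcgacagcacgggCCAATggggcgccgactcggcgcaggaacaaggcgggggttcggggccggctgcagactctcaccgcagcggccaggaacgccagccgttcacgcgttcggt
MTHFD2: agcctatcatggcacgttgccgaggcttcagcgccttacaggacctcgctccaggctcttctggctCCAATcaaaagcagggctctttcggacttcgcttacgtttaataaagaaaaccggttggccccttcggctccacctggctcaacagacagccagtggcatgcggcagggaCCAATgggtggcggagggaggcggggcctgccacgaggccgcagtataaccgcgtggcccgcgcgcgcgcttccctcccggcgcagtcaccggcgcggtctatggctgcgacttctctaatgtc
GLDC: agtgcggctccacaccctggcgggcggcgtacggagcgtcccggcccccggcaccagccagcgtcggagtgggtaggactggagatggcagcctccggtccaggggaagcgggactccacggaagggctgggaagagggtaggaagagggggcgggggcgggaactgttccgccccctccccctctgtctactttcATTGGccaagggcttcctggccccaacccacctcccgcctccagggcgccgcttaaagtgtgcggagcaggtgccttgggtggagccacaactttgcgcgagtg
The letters CCAAT, on either strand, occurred 3 times in PSAT1, 2 times in MTHFD2 and 1 time each in PHGDH and GLDC, and in all 7 matched genes against 34.6% of 35116 RefSeq promoters. TGATGNAA, the composite C/EBP-ATF element, was in 0 of 7 windows against 3.62% of all promoters, and CACGTG, an E-box, in 0 of 7 against 7.26%. GGGCGG, a GC box, was in 4 of 7 against 45% of all promoters, with 4 matches in GLDC, 1 in PSAT1 and 0 in PHGDH and MTHFD2. The motifs were searched on both strands, and none of them contains another. GC content was 69% in GLDC, 66% in PSAT1, 62.7% in MTHFD2 and 52.7% in PHGDH, beside 57.5% over all promoters, and PSAT1 held 37 CpG pairs beside a median of 14. A match is a description of letters in the window.

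PAX8, a transcription factor of renal epithelium and its carcinomas, had signals of 1915 to 2856 in A498 and 3291 to 5262 in 786-O tumours, and VIM, common in clear cell renal carcinoma, was also bright in every tumour. The 2% trimmed means of the arrays lay between 500.06 and 500.07. Such equal means have the form that scaling gives, so they do not show that the arrays are alike. Array medians ran from 79.7 to 99.4, and correlations within a group from 0.949 to 0.971. The difference between the 3-prime and 5-prime ACTB control probe sets, a sign of RNA integrity, ran from 0.06 to 1.03 on the log2 scale, and was highest in a resistant and an untreated 786-O tumour of the sorafenib arm (0.67 in resistant replicate 4 and 1.03 in untreated replicate 5). Sorafenib-arm 786-O tumours have titles of another number series than all other tumours, so the arm and whatever that series stands for cannot be told apart. In these whole-tumour samples fewer cells of a type and less RNA per cell cannot be told apart either. Differences below are resistant minus untreated, or A498 minus 786-O, in log2(signal + 16), where changes of dim genes come out too small. They are given ± SE from a limma fit over all 28 arrays, with p-values adjusted by the Benjamini-Hochberg method over all 13808 genes.

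GLDC signals ran from 8.02 to 2846 over the 28 tumours. In sorafenib-resistant A498 tumours its signals were 418, 137, 134, 429 and 379.7, against 2846, 1356, 1068 and 2454 in untreated A498 tumours. Every resistant A498 tumour lay below every untreated one. The mean was 299 ± 151 (SD, n = 5) in resistant and 1931 ± 854 (SD, n = 4) in untreated A498 tumours, a log2 difference of -2.68 ± 0.69, or 6.41-fold less. This is the contrast that the choice of genes used.

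In 786-O tumours of the sorafenib arm GLDC had signals of 82.5, 131, 217, 263 and 64.8 in resistant tumours, against 190.3, 37.2, 87.1, 21.5 and 26.1 in untreated ones. The groups overlapped, and 4 of the 5 untreated tumours were under the median of all array values. The difference of 1.08 ± 0.65 did not pass the limma test (adjusted p = 0.286), with a 95% interval from -0.25 to 2.41. In the sunitinib arm GLDC read 87.1, 272, 235 and 95.6 in resistant tumours and 8.02, 68.5, 289, 319 and 517 in untreated ones, and the untreated tumours held both the lowest and the highest of all 786-O signals. That difference was 0.07 ± 0.69 (limma, adjusted p = 0.971), with an interval from -1.34 to 1.48, so neither a clear increase nor a clear decrease was resolved in 786-O.

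Across the 6 groups, the mean log2 level of GLDC was 8.13 in resistant and 10.81 in untreated A498 tumours, 7.23 in sorafenib-resistant 786-O tumours and 6.15 in the untreated tumours of that arm, and 7.41 in sunitinib-resistant 786-O tumours and 7.34 in the untreated tumours of that arm. Only untreated A498 tumours stood clear of every other group. Next in level came resistant A498, then the sunitinib arm and then the sorafenib arm of 786-O, and the ranges of neighbouring groups in that order overlapped. The signals of resistant A498 tumours, 134 to 429, lay within the range of untreated 786-O tumours of the sunitinib arm. Untreated A498 exceeded untreated 786-O tumours of the sunitinib arm by 3.48 ± 0.69, or 11.1-fold, a value that rests on the same untreated A498 tumours and so has no test either.

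The genes with the group means most like those of GLDC, by root mean square distance of the 6 centred log2 means, were GOLT1A (0.46), FRY (0.48), CXCL14 (0.50), NHERF4 (0.51) and SCIN (0.57). For PHGDH they were CYP4F11 (0.20), APOC1 (0.21), LAT (0.26), CDHR5 (0.26) and MROCKI (0.26). For PSAT1 they were MSR1 (0.09), PLXNB1 (0.09), MFAP3L (0.11), ZBED3 (0.11) and PDE7B (0.11). Except for CXCL14 and LAT, all genes named for GLDC and PHGDH had means below the median of all array values (6.72) in every 786-O group. So did PDE7B. CYP4F11 lay between 4.22 and 4.30 there, near the floor of the scale. In the 786-O groups the likeness to GLDC and PHGDH is thus largely one of dim values.

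**Figure D1:**
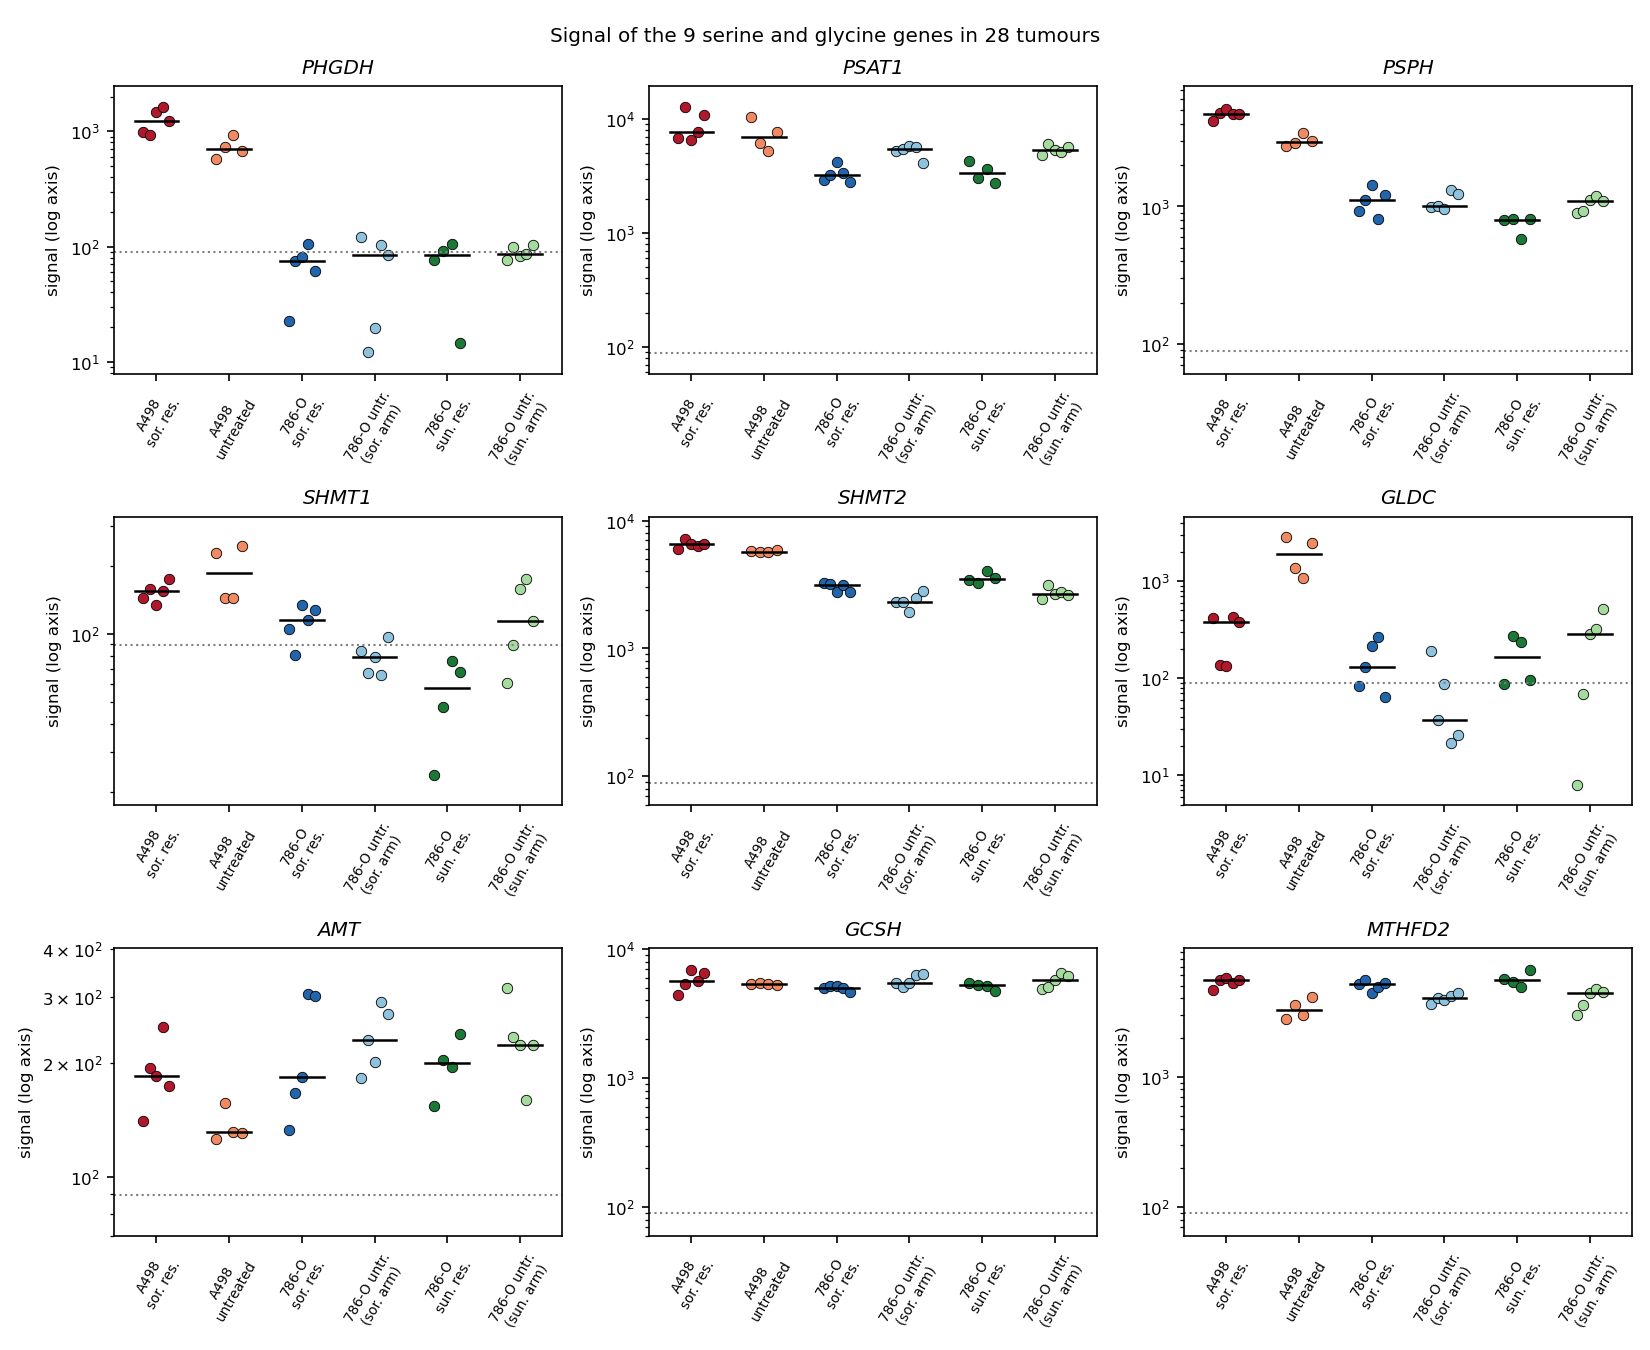
Signals of the 9 genes in all 28 tumours, with 1 point per tumour, a bar at the group median, a dotted line at the median of all array values (89.4) and a log axis for signal (sor., sorafenib; sun., sunitinib; res., resistant; untr., untreated). Resistant A498 tumours have GLDC signals of 134 to 429 against 1068 to 2846 in untreated A498 tumours, and PHGDH is above 500 in every A498 tumour and at or below 121 in every 786-O tumour.

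PHGDH, which commits 3-phosphoglycerate to serine, separated the lines. Its signals were 982, 926, 1479, 1614 and 1226 in sorafenib-resistant A498 tumours, against 578, 729, 934 and 681 in untreated A498 tumours. The groups overlapped by 1 tumour, with a difference of 0.74 ± 0.42 given as a description. In 786-O the signals were 22.6, 75, 81.7, 106 and 61.7 in sorafenib-resistant tumours, against 121, 12.1, 19.6, 104 and 84.1 in untreated tumours of that arm. Sunitinib-resistant tumours had 76.2, 92, 106 and 14.6, against 76.1, 99.7, 83.5, 85.6 and 103 in the untreated ones. The mean log2 levels of all 786-O groups were below the median of all array values, where the size of a change is poorly resolved. That of the untreated sunitinib arm was only just below it. Neither the sorafenib arm (0.20 ± 0.39, limma adjusted p = 0.789) nor the sunitinib arm (-0.43 ± 0.42, adjusted p = 0.638) passed the test. Untreated A498 tumours exceeded untreated 786-O tumours of the sunitinib arm by 2.81 ± 0.42, or 7.00-fold (limma, adjusted p = 2.51e-06), with no overlap.

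PSAT1, the transaminase of the middle step, was lower in both resistant 786-O groups. Sorafenib-resistant 786-O tumours had 2921, 3244, 4183, 3395 and 2775, against 5226, 5429.9, 5844, 5708 and 4126 in untreated tumours. The ranges overlapped at a single pair of tumours, and PSAT1 fell by 0.67 ± 0.18 (limma, adjusted p = 0.0137). Sunitinib-resistant tumours had 4322, 3029, 3674 and 2722, against 4811, 5999, 5388, 5099 and 5676 in untreated ones. These groups did not overlap, and PSAT1 fell by 0.67 ± 0.20 (limma, adjusted p = 0.0457). This call was lost in 14 of 22 settings, among them leaving out any 1 tumour of the arm except resistant replicate 1 (adjusted p up to 0.149, without resistant replicate 4). The second PSAT1 probe set read -0.72 in the sorafenib arm (adjusted p = 0.0391 over all probe sets) and -0.56 in the sunitinib arm (adjusted p = 0.219).

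In A498 the PSAT1 signals were 6775, 12679, 6611, 7619 and 10833 in resistant tumours and 10498, 6190.1, 5259 and 7672 in untreated ones, a broad overlap with a difference of 0.26 ± 0.20. Untreated A498 exceeded untreated 786-O tumours by 0.41 ± 0.20 (limma, adjusted p = 0.0744), which missed the threshold, while the second probe set differed by 0.98 (adjusted p = 0.00141 over all probe sets).

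PSPH, the phosphatase that releases serine, had 4160.1, 4785, 5106, 4674 and 4703 in sorafenib-resistant A498 tumours, against 2737, 2911, 3417 and 2986 in untreated A498 tumours. No tumours overlapped, and the difference was 0.64 ± 0.14, with 0.75 on the other probe set that passed the filter. Sorafenib-resistant 786-O tumours had 928, 1115, 1428, 816 and 1203, against 995, 1012, 959, 1324 and 1235 in untreated ones, which interleaved (-0.02 ± 0.13, limma adjusted p = 0.933). Sunitinib-resistant 786-O tumours had 791, 809, 584 and 807, all below the 898, 919, 1106, 1192 and 1092 of untreated ones. PSPH fell there by 0.47 ± 0.14 (limma, adjusted p = 0.0466), and the other probe set read -0.25 (adjusted p = 0.537). The call was lost in 16 of 23 settings, among them leaving out any 1 tumour of the arm except untreated replicate 1 (adjusted p up to 0.213, without resistant replicate 3). Between lines, PSPH was higher in untreated A498 than in untreated 786-O tumours by 1.52 ± 0.14, or 2.87-fold (limma, adjusted p = 8.95e-10).

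SHMT2, the mitochondrial enzyme that makes glycine from serine, was higher in both resistant 786-O groups. Its signals were 3222, 3209, 2753, 3142 and 2759 in sorafenib-resistant tumours, against 2328, 2329, 1930.2, 2468 and 2833 in untreated ones. Only the highest untreated tumour reached into the resistant range, and SHMT2 rose by 0.35 ± 0.09 (limma, adjusted p = 0.00973). Sunitinib-resistant tumours had 3414, 3253, 4048 and 3561, all above the 2437, 3139, 2674, 2749 and 2630.3 of untreated ones, a rise of 0.39 ± 0.10 (limma, adjusted p = 0.0187) that was lost without resistant replicate 3 or untreated replicate 1 (adjusted p up to 0.0923). The other probe sets had smaller differences, of 0.30 and 0.19 in the sorafenib arm and of 0.16 and 0.38 in the sunitinib arm, and none of these passed over all probe sets (lowest adjusted p = 0.0723).

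In A498, SHMT2 had 5972, 7144, 6537, 6303 and 6507 in resistant tumours and 5733, 5664, 5690.0 and 5925 in untreated ones. The groups did not overlap, although the difference was only 0.17 ± 0.10. Untreated A498 exceeded untreated 786-O tumours by 1.08 ± 0.10, or 2.11-fold (limma, adjusted p = 5.42e-10), and the other probe sets gave 0.98 and 1.45.

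SHMT1, the cytosolic enzyme, was dim, and only 1 of its 2 probe sets with a single symbol passed the filter. Sorafenib-resistant 786-O tumours had 105, 80.8, 134, 115 and 128, against 83.8, 67.0, 78.7, 65.4 and 96.7 in untreated ones (0.44 ± 0.22, limma adjusted p = 0.193). Sunitinib-resistant 786-O tumours had 23.6, 47.5, 75.5 and 67.8, against 60.8, 89.6, 157, 174 and 115 in untreated ones. Here SHMT1 fell by 0.95 ± 0.24 (limma, adjusted p = 0.0181) with overlapping groups, a call lost without resistant replicate 1 or untreated replicate 4 (adjusted p up to 0.0764). The change under sorafenib minus the change under sunitinib was 1.40 ± 0.32, and it passed the test of the difference itself (limma, adjusted p = 0.0358). The untreated tumours of the sorafenib minus the sunitinib arm differed by -0.46 ± 0.22 for SHMT1 (limma, adjusted p = 0.381). The call between arms was lost in 14 of 30 settings, with an adjusted p up to 0.0859 when 1 tumour was left out. The group means of untreated sorafenib-arm and sunitinib-resistant tumours lay below the median of all array values. The call on the difference was lost when the 2 tumours of highest ACTB difference were left out and under other settings given in the closing section. A498 tumours had 144, 157, 134, 155 and 175 when resistant and 227, 145, 144 and 244 when untreated, a difference of -0.25 ± 0.24. Untreated A498 exceeded untreated 786-O tumours by 0.65 ± 0.24 (limma, adjusted p = 0.0212), with overlap, and this call was lost without untreated A498 replicate 1 or 4 or untreated 786-O replicate 1 or 2 (adjusted p up to 0.0861).

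MTHFD2 is high in embryonic and many tumour cells and low in most adult tissues. On its brighter probe set, MTHFD2 in every resistant tumour lay above all untreated tumours of the same arm. In A498 it had 4669.5, 5487, 5779, 5202 and 5486 in resistant tumours, against 2756, 3575, 2968 and 4065 in untreated ones, a difference of 0.68 ± 0.13. In sorafenib-resistant 786-O tumours it had 5109, 5497, 4369.9, 4861 and 5197, against 3642, 4034, 3911, 4156 and 4355 in untreated ones. The gap between the closest tumours was small, and 0.31 ± 0.12 missed the threshold (limma, adjusted p = 0.0776). Sunitinib-resistant tumours had 5641, 5328, 4878 and 6545, against 2982, 3523, 4386, 4736 and 4469 in untreated ones, a rise of 0.49 ± 0.13 (limma, adjusted p = 0.0244). The call was lost without resistant replicate 4 or untreated replicate 1 or 2 (adjusted p up to 0.0983). The second MTHFD2 probe set read 0.24 in the sorafenib arm (adjusted p = 0.534 over all probe sets) and 0.34 in the sunitinib arm (adjusted p = 0.474), with overlap in both. In A498 it read 0.74, without overlap.

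Between untreated lines the MTHFD2 probe sets disagreed. The brighter one read -0.26 ± 0.13 in A498 minus 786-O (limma, adjusted p = 0.0804). The dimmer one, of a type open to cross-hybridisation, read 1.84 (adjusted p = 2.16e-07 over all probe sets), so no direction is given for MTHFD2 between lines.

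AMT and GCSH, the partners of GLDC in the glycine cleavage system, did not pass the test in either 786-O arm. AMT had 133, 167, 184, 304 and 301 in sorafenib-resistant 786-O tumours, against 183, 230.3, 202, 290.5 and 271 in untreated ones, and 154, 204, 195 and 239 in sunitinib-resistant tumours, against 315, 235, 223, 160.3 and 224 in untreated ones. The groups overlapped in both arms, with differences of -0.15 ± 0.19 and -0.19 ± 0.21 (limma, adjusted p = 0.654 and 0.668). In A498 AMT had 141, 194, 185, 249 and 174 in resistant tumours and 126, 157, 132 and 131 in untreated ones (0.41 ± 0.21). AMT was lower in untreated A498 than in untreated 786-O tumours of the sunitinib arm (-0.68 ± 0.21, limma adjusted p = 0.00644), in the comparison in which GLDC was 11.1-fold more.

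GCSH signals lay between 4408 and 6847 in all 28 tumours. GCSH had 4408, 5406, 6847, 5642 and 6591 in resistant A498 tumours and 5397, 5496, 5376 and 5232 in untreated A498 tumours (0.09 ± 0.11). Sorafenib-resistant 786-O tumours ranged from 4617 to 5201 against 5074 to 6465 in untreated ones (-0.20 ± 0.10, limma adjusted p = 0.208), and sunitinib-resistant tumours from 4720.4 to 5437 against 4939 to 6584 (-0.13 ± 0.11, adjusted p = 0.562). Between lines the brighter probe set read -0.07 ± 0.11 (adjusted p = 0.583) and the other 0.38 (adjusted p = 0.0161 over all probe sets), so the probe sets do not give 1 direction.

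DLD, the dihydrolipoamide dehydrogenase that glycine cleavage shares with the pyruvate, 2-oxoglutarate and branched-chain complexes, had 7287, 6766, 6651, 6294 and 6773 in sorafenib-resistant 786-O tumours, all below the 8233, 8266, 8756, 9026 and 8918 of untreated ones. It fell by 0.35 ± 0.09 (limma, adjusted p = 0.0110), although a second probe set differed by 0.00. In the sunitinib arm it read -0.22 ± 0.10 (adjusted p = 0.213), and in A498 -0.07 ± 0.10.

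**Figure D2:**
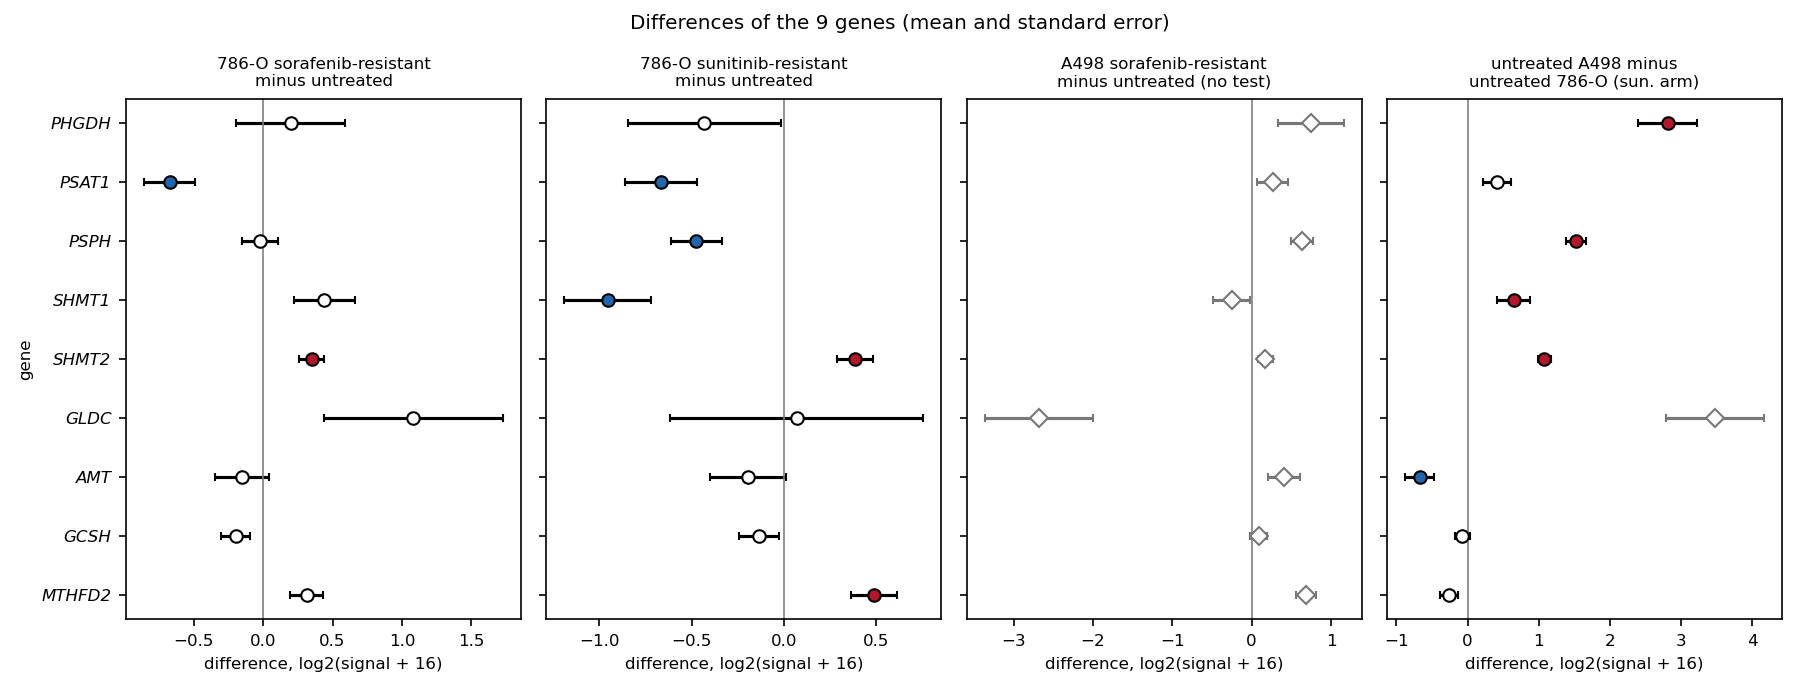
Log2 differences of the 9 genes in each comparison, with standard errors from the limma fit, filled circles where the adjusted p was under 0.05 (red higher, blue lower) and grey diamonds where no test is given. Each panel has its own scale. PSAT1 is at -0.67 in both 786-O arms, SHMT2 at 0.35 and 0.39, and GLDC at -2.68 in A498.

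Counted together, 1 of the 9 genes rose (SHMT2) and 1 fell (PSAT1) in sorafenib-resistant 786-O tumours, against a background of 15.2% of all 13808 genes called in either direction (5.97% higher and 9.18% lower). The share of members lies near that background. In the groups of that arm, 1 gene (MTHFD2) did not overlap, beside 12.5% of all genes. In sunitinib-resistant 786-O tumours 2 genes rose (SHMT2 and MTHFD2) and 3 fell (PSAT1, PSPH and SHMT1), against 5.06% of all genes (2.22% higher and 2.84% lower). Of the members, 4 did not overlap there, beside 8.46% of all genes. The 5 calls were near the threshold, and between 2 and 3 passed when any 1 of the 9 tumours of the arm was left out. The median difference over the members was 0.20 in the sorafenib arm and -0.19 in the sunitinib arm, beside -0.05 and -0.01 over all genes tested.

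Of the members other than GLDC, 2 were past the same threshold in A498 (PSPH and MTHFD2, both higher), beside 6.34% of all genes (2.93% higher and 3.4% lower). GLDC is left out of that count, because its fall in this contrast was part of the choice. With GLDC included, 4 of the 9 did not overlap between groups, beside 9.14% of all genes. These counts are a description, since the choice used this contrast. The median difference was 0.26, beside 0.03 over all genes. In untreated A498 against untreated 786-O tumours 4 genes that could be tested were higher (PHGDH, PSPH, SHMT1 and SHMT2) and 1 was lower (AMT). GLDC has no test in that comparison and is left out of these counts. The background was 58% of all genes called (27.3% higher and 30.6% lower), so the share called in either direction is not far from that of other genes. By direction, more members were higher than lower, while slightly more of all genes were lower. With GLDC included, 5 of the 9 did not overlap, beside 47.4% of all genes. The median difference, again with GLDC, was 0.65 beside -0.06 over all genes. Of the 9 genes, SHMT1 alone passed the test of a difference between the 786-O arms, where 0.949% of all genes passed (0.442% higher and 0.507% lower). Untreated 786-O tumours of the sorafenib minus the sunitinib arm gave 0 calls among the members by limma, with 1 (SHMT2, -0.20) at an unadjusted p under 0.05, beside 0.275% of all genes called (0.21% higher and 0.0652% lower), and 0 members without overlap, beside 2.77% of all genes.

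**Figure D3:**
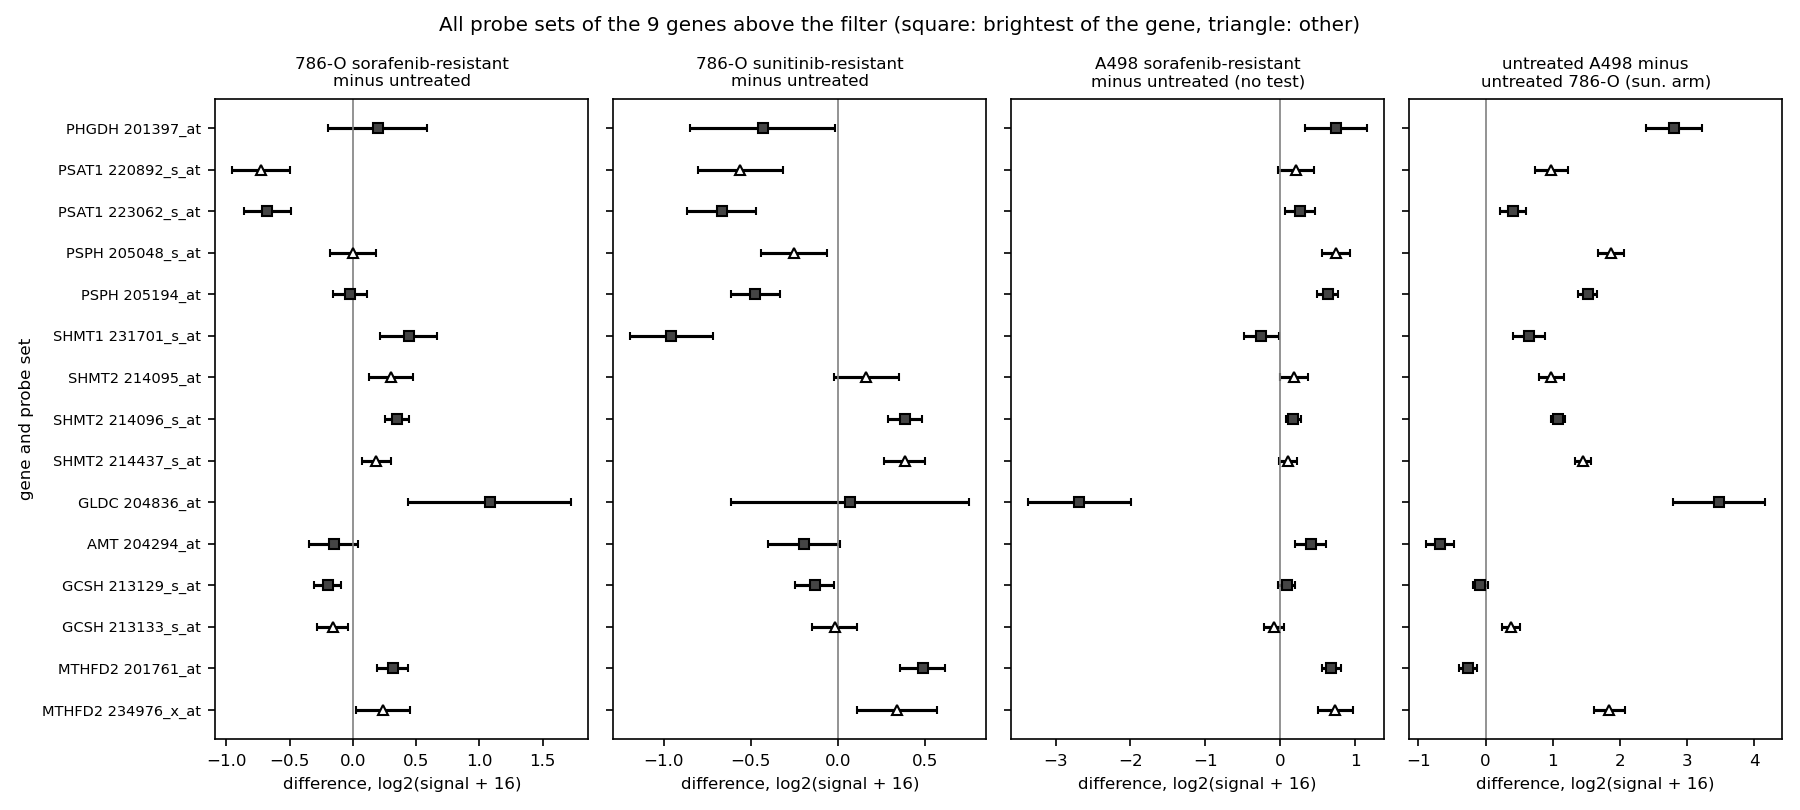
Log2 differences with standard errors of every probe set with a single symbol of the 9 genes that passed the filter, by comparison, each panel with its own scale. Squares mark the brightest probe set of a gene and triangles the others, and the wide split of MTHFD2 between untreated lines (-0.26 and 1.84) can be seen.

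The wider pathway was read from lists of named genes. Of 28 tested genes of ATF4 and the amino acid response, 7 rose and 0 fell in sorafenib-resistant 786-O tumours, beside 5.97% of all genes higher and 9.18% lower. The largest without overlap were CEBPB, a bZIP transcription factor (0.71 ± 0.14, limma adjusted p = 0.00105), TRIB3, an inhibitor of ATF4 activity (0.70 ± 0.13, adjusted p = 6.22e-04), CEBPG (0.54 ± 0.11, adjusted p = 0.00186) and the tryptophanyl-tRNA synthetase WARS1 (0.52 ± 0.10, adjusted p = 9.19e-04). In sunitinib-resistant tumours 4 rose and 0 fell, beside 2.22% of all genes higher and 2.84% lower. Among them were DDIT4, an inhibitor of mTORC1 (0.44 ± 0.09, adjusted p = 0.00507), ATF4 itself (0.42 ± 0.11, adjusted p = 0.0304) and the glycyl-tRNA synthetase GARS1 (0.33 ± 0.09, adjusted p = 0.0334). The sunitinib count fell to between 1 and 3 when any 1 tumour of the arm was left out. In A498, by description, 7 were past the threshold upward and 0 downward, beside 2.93% and 3.4% of all genes, led by CHAC1 (1.21), DDIT3 (1.15), ASNS (0.65) and ATF4 (0.62). That count was 4 to 9 when 1 tumour was left out, and 4 without untreated A498 replicate 1. The list's median difference was 0.17, 0.24 and 0.33 in the sorafenib and sunitinib arms of 786-O and in A498, beside -0.05, -0.01 and 0.03 over all genes. Of the members known as ATF4 targets, PSAT1 fell and SHMT2 rose in both 786-O arms. Under sunitinib PSPH fell and MTHFD2 rose, while PHGDH was not called in either arm. The sunitinib calls of PSAT1 and PSPH were lost in 14 of 22 and 16 of 23 settings. In A498, by description, these members all read higher in resistant tumours: PHGDH 0.74, PSAT1 0.26, PSPH 0.64, SHMT2 0.17 and MTHFD2 0.68.

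Among 9 tested transporters of serine and glycine, SLC1A5, which carries glutamine and serine, rose in sorafenib-resistant (0.53 ± 0.12, limma adjusted p = 0.00286) and in sunitinib-resistant 786-O tumours (0.66 ± 0.13, adjusted p = 0.00383). SFXN3, a mitochondrial serine carrier, also rose under sorafenib (0.31 ± 0.11, adjusted p = 0.0496), and no transporter fell in these arms. Of all genes, 5.97% were called higher in the sorafenib arm and 2.22% in the sunitinib arm. The count of 2 under sorafenib was at the edge of the threshold. It was 1 without any 1 of resistant replicates 2, 3, 4 and 5 or untreated replicates 1, 4 and 5, and without the 2 tumours of highest ACTB difference. In all, 14 of 23 settings moved it, with values from 0 to 4. In A498 none of the 9 was past the threshold, beside 6.34% of all genes. Between untreated lines 2 of the 9 were higher and 3 lower in A498, beside 27.3% and 30.6% of all genes. SLC1A5 was among the higher (1.82) and SLC1A4, another serine carrier, among the lower (-2.38).

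A further list held enzymes of serine and glycine use and of neighbouring steps. Some of them, such as BHMT, BHMT2, DMGDH, AGXT2, GCLC and GCLM, take neither serine nor glycine as a substrate. Of its 25 tested genes, 1 rose and 7 fell in sorafenib-resistant 786-O tumours, where 5.97% of all genes were called higher and 9.18% lower. The 7 were led by GATM, which uses glycine to begin creatine synthesis (-1.81 ± 0.21, limma adjusted p = 2.12e-06). DMGDH, which demethylates dimethylglycine, read -1.31, the methyltransferase BHMT2 -1.11 and GCLM, of glutathione synthesis, -0.61. In sunitinib-resistant tumours 0 rose and 3 fell, beside 2.22% and 2.84% of all genes. The 3 were AGXT2 (-1.61 ± 0.31, adjusted p = 0.00362), GATM (-1.57 ± 0.23, adjusted p = 4.42e-04) and GCLC (-0.48 ± 0.09, adjusted p = 0.00354). By description, 1 was past the threshold upward and 5 downward in A498, beside 2.93% and 3.4% of all genes, led by GLYAT, which conjugates glycine (-1.89), BHMT2 (-1.09), SPTLC2, of sphingolipid synthesis (-0.90), and DAO (-0.82). The list's median was -0.11, -0.05 and -0.29 in these arms, beside -0.05, -0.01 and 0.03 over all genes, and in each arm more of all genes were called lower than higher. Untreated A498 tumours had 17 of the 25 genes higher and 2 lower than untreated 786-O tumours, beside 27.3% and 30.6% of all genes, with BHMT (4.48), AGXT2 (3.93), GLYAT (3.60) and GATM (3.33), all known from liver and kidney, at the top.

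In the folate list, 18 genes were tested and none was called in either 786-O arm by limma, with 4 at an unadjusted p under 0.05 in each. Of all genes, 15.2% were called in the sorafenib arm and 5.06% in the sunitinib arm. In A498, DHFR2 (0.46) and GART (-0.35) were past the threshold, beside 2.93% of all genes higher and 3.4% lower. That count of 2 was 0 without untreated A498 replicate 4 and 1 without untreated replicate 1 or 2 or resistant replicate 3 or 5. Between untreated lines 6 were higher in A498, with ALDH1L2 (3.86) and the folate carrier SLC46A1 (2.72) first, and 6 were lower, with MTHFD2L, the close relative of MTHFD2, at -1.18. These shares of the 18 genes lie near the 27.3% higher and 30.6% lower of all genes. Of 9 tested genes of the lipoate supply and DLD, 3 fell in sorafenib-resistant 786-O tumours, beside 9.18% of all genes lower. DLD, NFU1 (-0.35 ± 0.09, limma adjusted p = 0.00897) and ISCA1 (-0.41 ± 0.12, adjusted p = 0.0280, with overlap, named after its value was seen) made up that count. The count was 1 without the 2 tumours of highest ACTB difference and 0 with the arrays centred on their medians. In the sunitinib arm and in A498 it was 0, with 4 and 0 at an unadjusted p under 0.05, beside 5.06% and 6.34% of all genes called. Of 10 other subunits of lipoyl-dependent dehydrogenases, 0 were called in the sorafenib arm of 786-O, beside 15.2% of all genes. In the sunitinib arm 1 of them fell, PDHA1 (-0.40 ± 0.09, limma adjusted p = 0.00769), beside 2.84% of all genes lower. In A498, 2 of the 10 were past the threshold downward, BCKDHA (-0.44) and PDHA1 (-0.37), beside 3.4% of all genes. The list median there was -0.25 beside 0.03 over all genes.

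**Figure D4:**
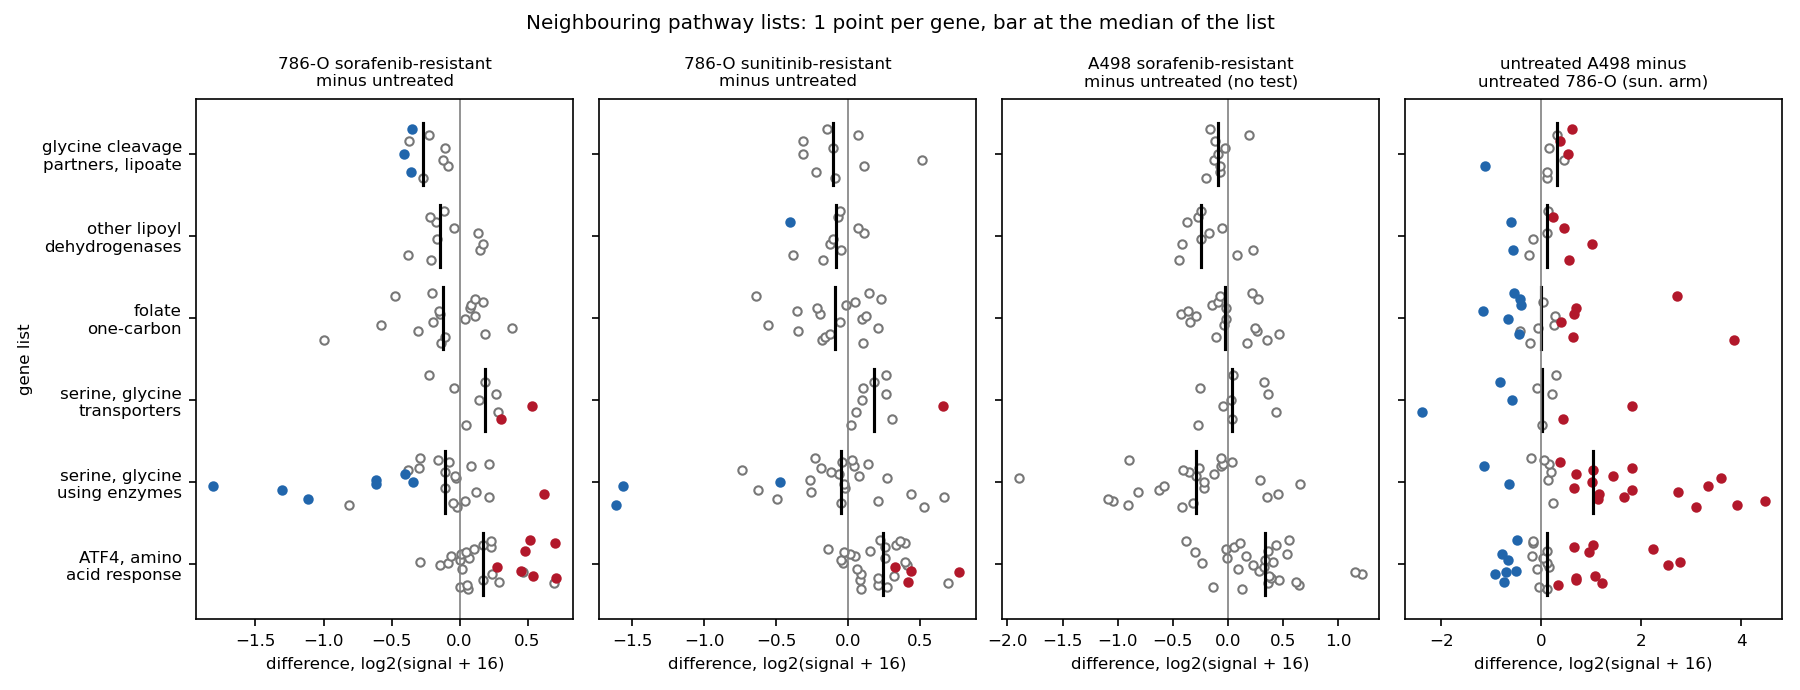
Log2 differences of the tested genes of each pathway list in each comparison, with 1 point per gene, a bar at the list's median and its own scale in each panel. Points are filled where the adjusted p was under 0.05 (red higher, blue lower), with no test shown for resistant A498 tumours. The ATF4 list has medians of 0.17, 0.24 and 0.33 in the resistant tumours of the 3 arms. The list labelled serine, glycine using enzymes, which also holds neighbouring steps, reaches 4.48 (BHMT) in untreated A498 minus untreated 786-O.

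Markers of fibroblasts and pericytes moved with the sorafenib arm of 786-O. Of the 13 tested, 6 fell and 0 rose there, beside 9.18% of all genes lower and 5.97% higher. The summed signal of the list was 4089 to 6840.2 in resistant tumours against 8880.5 to 12356 in untreated ones, with none of its markers at 0. Of the other markers there, 1 of 5 of endothelium, 1 of 6 of macrophages and 1 of 7 of skeletal muscle fell. With 1 gene each, these counts are too small to set apart from the 9.18% of all genes lower. Endothelial sums were 648 to 924 in resistant and 879 to 1294 in untreated tumours. The sums cover all markers of a list on the array, tested or not. Of the 15 summed endothelial genes, 12 in resistant and 10 in untreated tumours had a mean log2 level below the median of all array values. In the sunitinib arm 1 of the 13 fibroblast and pericyte markers fell, RGS5 (-0.99 ± 0.24, limma adjusted p = 0.0176), beside 2.84% of all genes lower. Of the skeletal muscle markers in that arm, 0 of 7 were called, with 2 at an unadjusted p under 0.05. Their median difference was 0.85 beside -0.01 over all genes. The muscle sums there were 1121 to 2340.1 in resistant and 541 to 1515 in untreated tumours. Of the 14 summed muscle genes, 8 in resistant and 10 in untreated tumours had a mean log2 level below the median of all array values. The fibroblast sums were 4605 to 12019 in resistant and 5094 to 9763 in untreated tumours. In A498 the fibroblast sums were 11266 to 27001 in resistant and 7807 to 17175 in untreated tumours. COL1A1 alone had a mean signal of 10028 in untreated A498 tumours, where the median sum was 14485. The sum in untreated A498 tumours thus largely follows 1 gene and is a poor guide to fibroblasts. The fibroblast ranges overlapped in A498, and the muscle and fibroblast ranges overlapped in the sunitinib arm. In the sorafenib arm the fibroblast sums did not overlap, while the endothelial sums did. The part of these cells in the differences of PSAT1, SHMT2 and the pathway lists of the sorafenib arm, and in those of the sunitinib arm, was not tested. Untreated A498 tumours had 1 of the 13 markers higher, COL1A1 (4.99), and 4 lower than untreated 786-O tumours of the sunitinib arm. Of all genes, 27.3% were higher and 30.6% lower, so the share of lower markers lies near that of all genes. The part of these cells in that comparison was not tested either. None of 10 proliferation markers was called in any arm. Of all genes, 15.2%, 5.06% and 6.34% were called in the sorafenib arm, the sunitinib arm and A498. Proliferation sums were 30291 to 43473 in sorafenib-resistant 786-O tumours and 33846 to 44591 in the untreated ones of that arm.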

How the data were processed

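Each of the 28 tumours has 1 array of the Affymetrix HG-U133 Plus 2.0 type, read in a single colour. The values are intensity values, linear probe set signals deposited by the authors. RMA and MAS5 are named in the submitters' processing notes, without the step each was used for, and equal 2% trimmed means of the arrays have the form that MAS5 scaling gives. No column was left unused (0). Detection calls were not used, so for dim genes only the median of all values (89.4) serves as a guide, and the number of arrays, 4 or 5 per group, limits the precision.

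Groups came from the labels. Analysis was on log2(signal + 16). The arrays hold 54675 probe sets, of which 41091 had 1 gene symbol in the platform annotation, 1801 had several and 11721 had no entry; 62 were controls. The brightest probe set stood for a gene, and genes above the median of all values on at least 4 arrays were kept, 13808 of 19775. The limma package (3.58.1, R 4.3.3) fitted 6 group means to the 28 arrays, with calls where the adjusted p (Benjamini-Hochberg) was under 0.05; single probe sets were fitted over 26924 probe sets. The code was tested on simulated data. Plots used Python 3.11.15 and matplotlib 3.10.9, and promoters came from RefSeq.

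The 9 genes and the lists were chosen with earlier results of these data known. All members, DLD, at most 4 called genes per list and comparison without overlap, and the 5 genes nearest to GLDC, PHGDH and PSAT1 were named. Exceptions are said in the text. PAX8 and VIM were added afterwards. Alternatives covered pseudocounts, filters, scaling, probe set choice, array weights, the variance model, the arrays fitted and leaving out arrays.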

Additional observations from a re-analysis of the deposited data

Results flagged for a closer look

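In sunitinib-resistant 786-O tumours the PSPH signal of replicate 3, 584, lay below the other tumours of its group, of which the nearest was at 791. It was the 1 such value among 54 combinations of a gene and a group, where chance gives about 1 in 20. The cause was not tested.

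SHMT1 differed between the 786-O arms: its change under sorafenib minus its change under sunitinib was 1.40 on the log2 scale, tested as a difference of differences in the limma fit (adjusted p = 0.0358). Untreated tumours of the sorafenib minus the sunitinib arm differed by -0.46 for SHMT1 (limma, adjusted p = 0.381), and the call was lost in 14 of 30 settings. The probe set is dim, and the other SHMT1 probe set with a single symbol did not pass the filter. Under the settings other than leaving out 1 tumour, the difference ran from 0.48 to 1.68. The value rests on 5 resistant and 5 untreated tumours of the sorafenib arm and 4 resistant and 5 untreated tumours of the sunitinib arm.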

How the results depend on the processing

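Over 38 single-gene results, 873 settings were compared, of which 752 kept direction and side of the threshold. Another 87 kept direction but lost the call, 11 kept direction and gained it, and 23 turned direction. All 23 turns were of differences that had missed the threshold. The 38 include the members in resistant A498 tumours and GLDC between lines, which have no test above. This tally therefore rests in part on values that the choice of genes used. Of the 2 members called in the sorafenib arm of 786-O, 0 were left with a required difference of at least 1 or without probe sets with suffix _s_at or _x_at (where fewer members are tested) and 1 with averaged probe sets. Leaving out 1 tumour gave 2 throughout. Of the 5 in the sunitinib arm, 3 were left with arrays centred or with no filter, 1 with only the arrays of the comparison or without those suffixes, and 0 with a required difference of 1 or the mean of probe sets; leaving out 1 tumour gave 2 to 3. In A498 the member count with the untested GLDC included was 3. It became 1 with a required difference of 1, and 2 to 3 without 1 tumour. The SHMT1 call between arms went to 0 with the filter at the 75th percentile, no filter, the mean of probe sets, only the arrays of the comparison, no _s_at or _x_at probe sets, or no arrays of highest ACTB difference, and to 0 to 1 without 1 tumour. Between untreated lines the member count with the untested GLDC included was 6. It became 5 to 7 without 1 tumour and 4 to 8 under the other settings. GLDC itself ran from 2.97 to 4.67 between lines under those other settings. Between untreated 786-O arms the count stayed 0. Centring moved the median of all genes by 0.09, 0.06 and -0.10 in the sorafenib and sunitinib arms of 786-O and in A498. The causes were not tested, except where fewer genes or arrays entered.

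GCSH turned to -0.00838 (centred) and -0.0832 (second probe set) in A498, and to 0.15 (mean of probe sets) and 0.38 (second probe set) between lines. GLDC in the sunitinib arm turned to -0.0269 with array weights and -0.0954 with a pseudocount of 64, and ranged from -0.62 to 0.50 without 1 tumour. MTHFD2 between lines turned to 0.79 (mean of probe sets) and 1.84 (second probe set). PSPH in the sorafenib arm turned to 0.0405 with array weights, 0.0647 centred, 0.000907 on its second probe set and 0.12 without the arrays of highest ACTB difference, and ranged from -0.12 to 0.0748 without 1 tumour. PHGDH ranged from -0.13 to 0.46 in the sorafenib arm and from -0.64 to 0.0204 in the sunitinib arm without 1 tumour. PSAT1 in the sorafenib arm lost its call only with a required difference of 1, among the settings that gave it a value. No paired analysis was possible because the labels carry no replicate numbers, and those used here only name tumours.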
